A study of Mus musculus with 2 samples.

Results

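The mitochondrial ribosomal protein genes of the mouse were taken as every gene of the deposited table whose symbol is Mrpl or Mrps followed by a digit, with pseudogenes left out. This gave 78 of the 22322 genes in the table, 49 named for the large subunit (Mrpl) and 29 named for the small subunit (Mrps). Their mRNA was measured in macrophages isolated from livers with metastases, in 1 library from FABP7 KO mice and 1 library from WT mice, and the question addressed is how far these genes differ between the genotypes and between the ribosome's subunits. FABP7 KO mice lack fatty acid binding protein 7, an intracellular lipid chaperone, in the whole body on a C57BL/6 J background. WT mice carry the intact gene on the C57BL/6 background. Per the methods of the study, the mice were males 6 to 8 weeks old. MC38, a line of murine colorectal cancer cells, was given to both groups as 500000 cells in 100 µl by injection into the spleen, and liver macrophages were isolated on day 10 by positive selection for F4/80. The design text gives n = 1 for each genotype, and 1 genotype label reads FABP7 knockdown where the sample title reads KO. No spread between mice can therefore be estimated, no p-value is given, and every difference below is a difference between 2 libraries.

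Mitochondrial ribosomes translate the few mRNAs of the mitochondrial genome, all of which encode subunits of the oxidative phosphorylation (OXPHOS) complexes. Their rRNAs come from mitochondrial DNA, but their proteins are encoded in the nucleus, made on cytosolic ribosomes and imported. Many of these proteins descend from bacterial ribosomal proteins, while others occur only in mitochondrial ribosomes, and the positions given below are those seen in human, porcine and bovine structures.

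The values are FPKM (fragments scaled by transcript length and by the size of the library), so levels can be compared between genes. Fabp7 was at 0.69 FPKM in the KO library, against 353.62 FPKM in the WT library. All 13 macrophage and Kupffer cell markers were present, 11 of them above 0 in log2 ratio, with a summed level of 23939 FPKM in KO and 19262 FPKM in WT, among them Adgre1, which encodes F4/80. Markers of several other cells were higher in the KO library. The summed FPKM was 1098 in KO and 538 in WT for 8 hepatocyte genes, 258 in KO and 143 in WT for 6 liver endothelial genes, and 57.7 in KO and 11.0 in WT for the 6 measured neutrophil genes of 8, of which none was at 0 in either library. Measured stellate, B cell and erythroid markers were higher in KO too. The 3 measured epithelial markers of 4 summed to 5.10 FPKM in KO and 6.23 FPKM in WT. The other, Epcam, was at 0.13 FPKM in KO and 0 in WT. That MC38 cells carry these markers was assumed and not checked, so the share of MC38 cells is not known. Cell division genes were lower in KO, with 14 of 14 at least 2-fold lower and sums of 209 FPKM in KO and 735 FPKM in WT. The part of these shifts in the values of the mitochondrial ribosomal protein genes was not tested. In bulk RNA, fewer cells of a type and less RNA per cell cannot be told apart.

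Nearly the whole family was lower in FABP7 KO macrophages by a modest amount. Of the alternatives run, this direction reversed when the KO library was rescaled to equal totals of cytosolic ribosomal proteins and under no other. That rescaling multiplies every KO value by 1.37, so all other genes move up with the members. Differences are given as log2 ratios, KO over WT, after 1 was added to each FPKM. Of the 78 members, 73 were below 0, where 49.5% of all 10770 measured genes were. Measured means at least 1 FPKM in at least 1 library, and all 78 members exceeded 1 FPKM in both libraries. The median ratio was -0.33 for the members and 0.00 for all measured genes, with the middle 50% of members between -0.48 and -0.19. For all measured genes the middle 50% ran from -0.24 to 0.24, so the ratios of the members lay in a narrower band, 0.29 wide against 0.48. A total of 40 members were at least 20% lower in KO, a log2 ratio of -0.32 or less, where the background was 19.1%. Mrps24 alone was at least 25% higher, where 18.6% of measured genes were. At least 1.5-fold lower were 9 members, where the background was 7.37%. No member differed 2-fold in either direction, a size reached by 5.16% of measured genes. Summed over the family, the level was 1101 FPKM in KO and 1410 FPKM in WT, a ratio of 0.78, and the family took 0.25% of all FPKM in KO and 0.30% in WT.

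**Figure D1:**
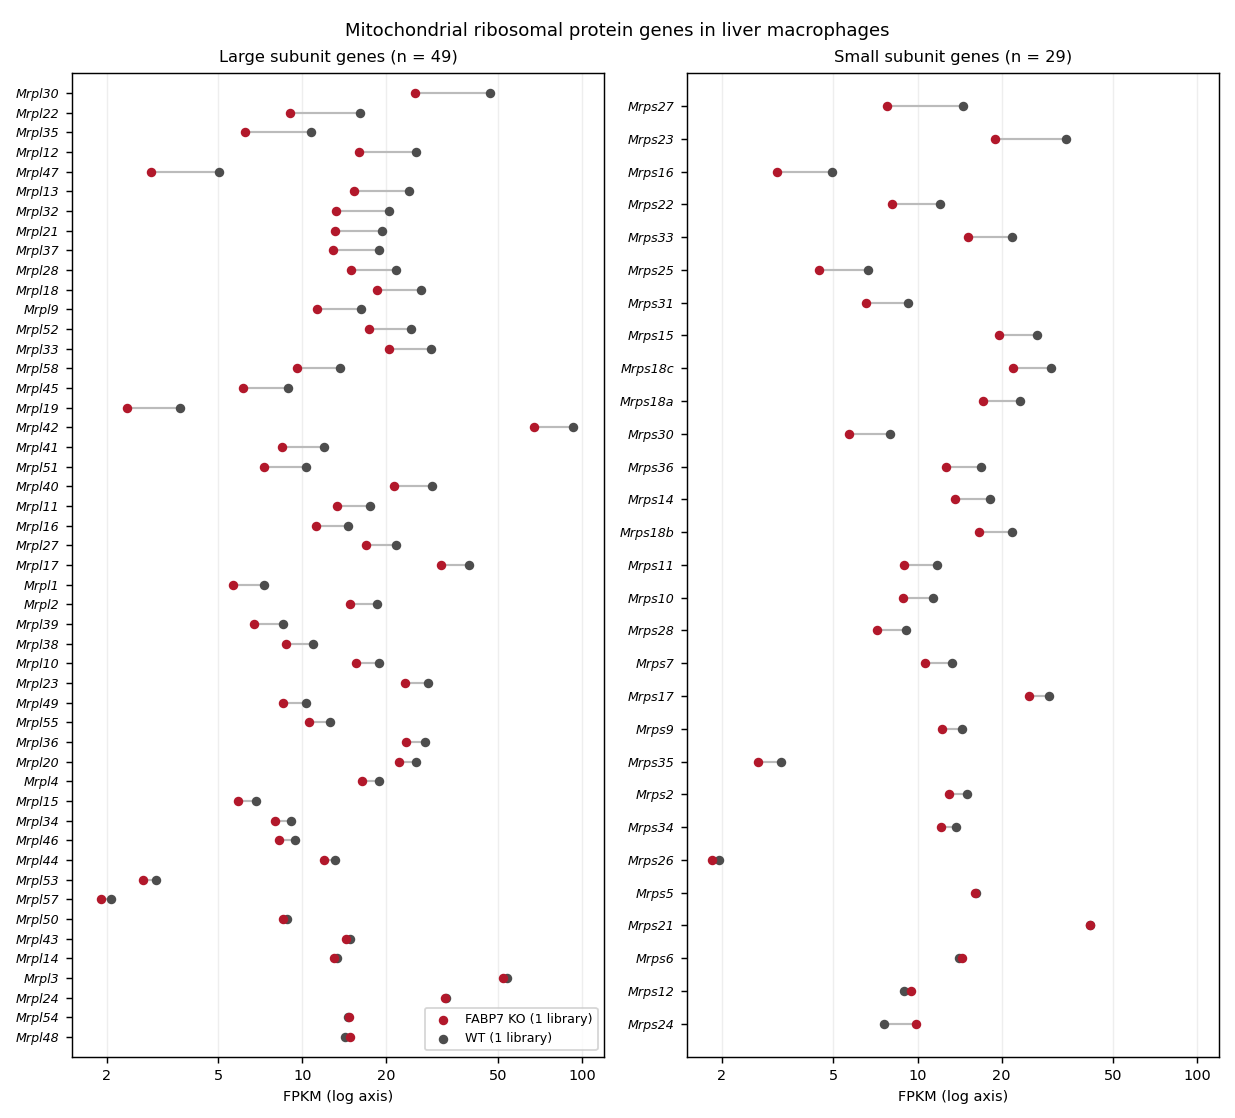
FPKM on a log axis for each of the 78 members, with the FABP7 KO library in red and the WT library in grey, large subunit genes on the left and small subunit genes on the right, ordered by log2 ratio from the lowest at the top. The KO point lies left of the WT point for 47 of 49 large and 26 of 29 small subunit genes.

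The lowest ratios of the large subunit were at Mrpl30, Mrpl22, Mrpl35, Mrpl12, Mrpl47 and Mrpl13, all of them counterparts of bacterial proteins. Mrpl30 was at 25.4 FPKM in KO and 47.0 FPKM in WT, the lowest log2 ratio of the family at -0.86. Mrpl22, which lines the tunnel through which the new peptide leaves, was at 9.01 FPKM in KO and 16.1 FPKM in WT (-0.77). Mrpl35 was at 6.25 FPKM in KO and 10.8 FPKM in WT (-0.70). In these 3 genes the KO level was 0.54 to 0.58 of the WT level. Mrpl12, a protein of the flexible stalk that recruits translation factors, had 15.98 FPKM in KO and 25.55 FPKM in WT (-0.64). Mrpl47, at the rim of the tunnel exit, had 2.87 FPKM in KO and 5.04 FPKM in WT (-0.64), and its exons overlap those of the neighbours Actl6a and Ndufb5 on the opposite strand. Mrpl13 had 15.4 FPKM in KO and 24.0 FPKM in WT (-0.61), and its exons overlap those of Mtbp on the opposite strand. Whether the counting used strand is not given, so reads of overlapping genes may not have been kept apart.

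At the other end of the large subunit, 6 genes were nearly level between the libraries. Mrpl48, in the central protuberance, had 14.8 FPKM in KO and 14.3 FPKM in WT (0.05), and Mrpl54, near the stalk, had 14.7 FPKM in KO and 14.6 FPKM in WT (0.01). Mrpl24 was at 32.3 FPKM in KO and 32.6 FPKM in WT (-0.01). The remaining 3, Mrpl3, Mrpl14 and Mrpl43, had ratios of -0.04 each, with Mrpl3 at 52.3 FPKM in KO and 53.7 FPKM in WT. Exons of Mrpl48, Mrpl24, Mrpl14 and Mrpl43 overlap those of Rab6a, Rrnad1, Tmem63b and Twnk, in that order, on the opposite strand. Their values may therefore hold reads of these neighbours. Mrpl3 and Mrpl24 rank among the most abundant members, so a ratio near 0 was not confined to weakly expressed genes.

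In the small subunit, Mrps27 and Mrps23, both without a bacterial counterpart, stood below the rest. Mrps27, a pentatricopeptide repeat protein, was at 7.78 FPKM in KO and 14.5 FPKM in WT (-0.82). Mrps23 was at 19.0 FPKM in KO and 33.9 FPKM in WT (-0.80). A gap separated these from the next 4, whose ratios lay between -0.52 and -0.50. Mrps16, for which human mutations cause a respiratory chain deficiency, was at 3.14 FPKM in KO and 4.94 FPKM in WT (-0.52). Mrps22, another human disease gene, was at 8.13 FPKM in KO and 12.04 FPKM in WT (-0.51). Mrps33 had 15.1 FPKM in KO and 21.8 FPKM in WT (-0.50), and Mrps25 had 4.44 FPKM in KO and 6.68 FPKM in WT (-0.50). Exons of Mrps25 overlap those of Nr2c2 on the opposite strand.

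Mrps24, the counterpart of bacterial protein S3, had the highest ratio of all members. It was at 9.84 FPKM in KO and 7.60 FPKM in WT, a log2 ratio of 0.33, and its exons overlap Urgcp on the same strand, so that reads of these neighbours cannot be told apart by strand. Mrps12, the counterpart of S12 in the decoding centre, was at 9.47 FPKM in KO and 8.97 FPKM in WT (0.07). Mrps6 was at 14.5 FPKM in KO and 14.0 FPKM in WT (0.04). Below these, Mrps21, Mrps5 and Mrps26 had ratios of -0.01, -0.01 and -0.05. Mrps21 was the most abundant small subunit gene, with 41.3 FPKM in KO and 41.4 FPKM in WT.

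The promoters of 5 members at the ends of these orders are shown, 300 bases around the annotated start of each gene from RefSeq on GRCm38.p6, 5′ to 3′ in the direction of the gene. They are the lowest ratio of each subunit (Mrpl30, Mrps27), the highest 2 ratios (Mrps24, Mrps12) and the most abundant member (Mrpl42). Capitals mark matches to the cores bound by NRF1 (GCGCANGCG), by ETS factors such as GABP (CCGGAAG) or by YY1 (AANATGGCG), read on both strands, which are factors known for control of nuclear genes of mitochondrial proteins.
Mrpl30, chr1:37890227-37890526, plus strand: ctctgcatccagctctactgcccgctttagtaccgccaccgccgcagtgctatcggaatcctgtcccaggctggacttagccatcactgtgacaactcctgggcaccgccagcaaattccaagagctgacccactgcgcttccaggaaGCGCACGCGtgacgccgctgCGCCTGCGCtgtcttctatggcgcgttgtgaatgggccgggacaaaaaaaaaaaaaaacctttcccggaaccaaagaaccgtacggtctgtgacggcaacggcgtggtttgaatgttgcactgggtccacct
Mrps27, chr13:99344536-99344835, plus strand: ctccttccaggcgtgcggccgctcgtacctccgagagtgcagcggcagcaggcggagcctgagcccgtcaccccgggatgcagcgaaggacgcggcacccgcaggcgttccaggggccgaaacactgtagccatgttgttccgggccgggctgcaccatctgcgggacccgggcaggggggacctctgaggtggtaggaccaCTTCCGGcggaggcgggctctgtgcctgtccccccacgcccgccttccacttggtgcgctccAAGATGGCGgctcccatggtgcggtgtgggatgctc
Mrps24, chr11:5707652-5707951, minus strand: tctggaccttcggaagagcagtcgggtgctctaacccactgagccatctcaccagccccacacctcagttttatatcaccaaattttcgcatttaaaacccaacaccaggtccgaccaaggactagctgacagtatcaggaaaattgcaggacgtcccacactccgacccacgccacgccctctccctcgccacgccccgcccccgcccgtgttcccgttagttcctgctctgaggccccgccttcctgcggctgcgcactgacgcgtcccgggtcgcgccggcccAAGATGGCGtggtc
Mrps12, chr7:28741772-28742071, minus strand: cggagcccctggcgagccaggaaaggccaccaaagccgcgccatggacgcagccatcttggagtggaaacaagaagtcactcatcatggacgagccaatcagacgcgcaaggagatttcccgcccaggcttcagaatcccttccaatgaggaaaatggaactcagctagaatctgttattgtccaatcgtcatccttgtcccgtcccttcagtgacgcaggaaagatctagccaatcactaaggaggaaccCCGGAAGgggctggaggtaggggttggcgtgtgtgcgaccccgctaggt
Mrpl42, chr10:95501900-95502199, minus strand: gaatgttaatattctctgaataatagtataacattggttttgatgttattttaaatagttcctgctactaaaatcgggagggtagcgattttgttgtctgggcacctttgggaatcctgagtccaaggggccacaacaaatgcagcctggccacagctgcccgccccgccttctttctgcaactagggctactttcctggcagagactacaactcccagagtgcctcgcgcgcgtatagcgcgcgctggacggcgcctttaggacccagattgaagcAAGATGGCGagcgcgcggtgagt
The window of Mrpl30 holds a pair of NRF1 core matches, 1 on each strand. Mrps27 holds an ETS match on the other strand and a YY1 match close to the end of the window, and Mrps24 and Mrpl42 also hold a YY1 match near the end. Mrps12 holds an ETS match. The lowest and the highest ratio of the small subunit therefore share a YY1 core match.

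A promoter entry was found for 69 members, and 42 of these (60.9%) held at least 1 of the 3 cores, against 35.7% of the 8570 measured genes with an entry. The ETS core stood in 36.2% of member promoters (25 of 69), 20.4% of measured genes and 9.12% of all 27025 promoters. For the YY1 core the shares were 15.9% of members (11 of 69), 6.10% of measured genes and 2.51% of all promoters, and for the NRF1 core 23.2% of members (16 of 69), 14.9% of measured genes and 6.47% of all promoters. Of the 11 YY1 matches in members, 10 (90.9%) lay in the last 100 bases of the window, as did 69.6% of the YY1 matches of measured genes. Related gene groups held these cores at shares of their own. The ETS core stood in 39.7% of 58 cytosolic ribosomal protein promoters and 24.2% of 62 nuclear OXPHOS promoters, the NRF1 core in 12.1% of the cytosolic and 30.6% of the OXPHOS promoters, and the YY1 core in 8.62% of the cytosolic and 12.9% of the OXPHOS promoters. GC boxes (GGGCGG) were held by 49.3% of members and 64.6% of measured genes, CCAAT boxes (CCAAT) by 39.1% of members and 39.4% of measured genes, and TATA boxes (TATAAA) by 5.80% of members and 6.93% of measured genes. Of all promoters, 35.9% held the GC box, 37.9% the CCAAT box and 14.2% the TATA box. The median log2 ratio was -0.31 for members with and -0.37 for members without an NRF1 match, -0.43 with and -0.32 without an ETS match, and -0.43 with and -0.32 without a YY1 match. These differences were not tested. The matches are counts of letters in a window and were not tested as sites.

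**Figure D2:**
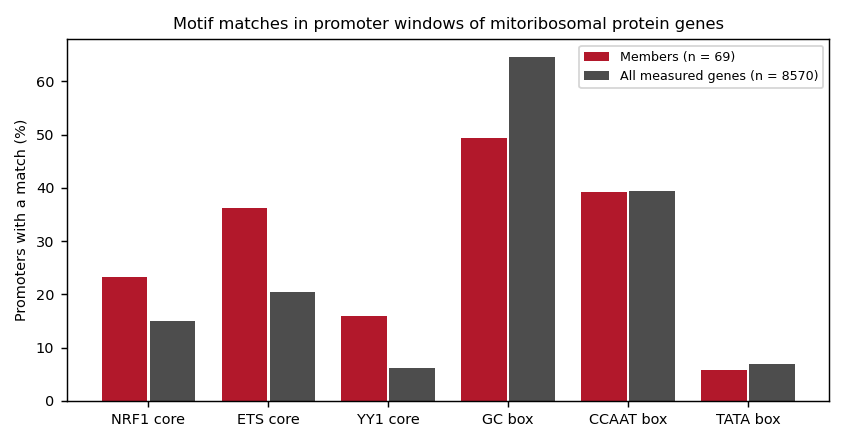
Share of promoter windows (percent, y axis) that hold at least 1 match to each of 6 motifs (x axis), for the members in red (n = 69) and all measured genes in grey (n = 8570). The ETS, YY1 and NRF1 cores are held by a larger share of members than of all measured genes, and the GC box by a smaller one.

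Levels within the family covered a wide range, and the order of the genes was nearly the same in both libraries. The highest over the lowest member was 36.3-fold in KO and 47.5-fold in WT. Spearman's rho between the libraries was 0.96 across the 78 genes, which are not independent replicates. Mrpl42, found only in mitochondrial ribosomes, was the most abundant at 67.1 FPKM in KO and 92.6 FPKM in WT (-0.46), followed by Mrpl3. Mrpl17, at the tunnel exit, was at 31.4 FPKM in KO and 39.6 FPKM in WT (-0.32), and Mrpl23, also at the exit, at 23.3 FPKM in KO and 28.0 FPKM in WT (-0.26). Among small subunit genes Mrps21 was followed by Mrps17, with 25 FPKM in KO and 29.6 FPKM in WT (-0.23), and by Mrps23, Mrps18c and Mrps15. The last of these had 19.6 FPKM in KO and 26.8 FPKM in WT (-0.43). The least abundant members were Mrps26, with 1.85 FPKM in KO and 1.95 FPKM in WT, and Mrpl57, with 1.91 FPKM in KO and 2.07 FPKM in WT.

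The low FPKM values allow an estimate of 17900000 fragments for the KO library and 18100000 for the WT library, which puts a median of 359 fragments in KO and 463 fragments in WT on a member. The estimate takes the longest annotated transcript as the length, and since the fragments of all genes then sum to 1.26 times the depth in KO and 1.28 times in WT, counting errors are on average understated. The counting error of a member's log2 ratio, here of FPKM with nothing added, had a median of 0.10 and ran from 0.03 to 0.34. On that scale 57 of the 78 ratios lay more than 1.96 counting errors from 0, as did 68.2% of 10749 measured genes, so a count of this size is near the background. Of the 57, 56 were lower in KO, where 34% of measured genes were beyond that limit and lower, and 1, Mrps24, was higher, where 34.1% were. The counting error was 0.06 for Mrpl30, 0.11 for Mrps27, 0.08 for Mrps23 and 0.16 for Mrps24. At the shallow end, Mrpl53 rested on an estimated 34 fragments in KO and 39 fragments in WT. Counting error is not error between mice, and no molecular identifiers are described, so these figures cover counting alone.

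Both subunits were lower in KO on the deposited scale, and the order of their medians depended on how genes were assigned. Of the 49 Mrpl genes 47 were below 0 and 25 at least 20% lower, and of the 29 Mrps genes 26 were below 0 and 15 at least 20% lower. The shares of all measured genes were 49.5% and 19.1%. The median log2 ratio was -0.32 for the large subunit, with the middle 50% between -0.48 and -0.18, and -0.36 for the small subunit, with the middle 50% between -0.43 and -0.19. Large minus small, the medians differ by 0.04, which was not tested since members are not replicates. Summed levels were 736 FPKM in KO and 950 FPKM in WT for the large subunit, a ratio of 0.77, and 365 FPKM in KO and 459 FPKM in WT for the small subunit, a ratio of 0.79. The large subunit genes therefore held 2.02 times the summed FPKM of the small subunit genes in KO and 2.07 times in WT. These sums run over 49 and 29 genes. The median level per gene was 13.1 FPKM for the large and 12.2 FPKM for the small subunit in KO. In WT it was 16.1 FPKM for the large and 14.0 FPKM for the small subunit. At least 1.5-fold lower were 7 of the 49 large and 2 of the 29 small subunit genes, where 7.37% of measured genes were.

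Some symbols do not match the place of the protein. In mammalian structures the proteins of Mrps30 and Mrps18a sit in the large subunit, and that of Mrps36 belongs to the 2-oxoglutarate dehydrogenase complex. Mrps30 had 5.70 FPKM in KO and 7.95 FPKM in WT (-0.42), and Mrps36 had 12.7 FPKM in KO and 16.8 FPKM in WT (-0.38), both close to the family median. With the genes placed by structure, the median was -0.34 for 51 large subunit genes and -0.31 for 26 small subunit genes, so the sign of the small difference between the subunits turned to -0.02. The 3 paralogs of bacterial S18 differed little. Mrps18a was at 17.1 FPKM in KO and 23.3 FPKM in WT (-0.43), Mrps18b at 16.6 FPKM in KO and 21.8 FPKM in WT (-0.38), and Mrps18c at 21.99 FPKM in KO and 29.9 FPKM in WT (-0.43).

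Sorted by place within the mitochondrial ribosome, most regions had medians near that of the family, and the group of the decoding centre and mRNA path had the highest. Its 7 genes had a median of -0.01, 5 of them below 0 and 1 at least 20% lower. The shares of all measured genes were 49.5% and 19.1%. Besides Mrps12, Mrps6, Mrps21 and Mrps5, which were nearly level between the libraries, the group holds Mrps2 with 12.97 FPKM in KO and 15.0 FPKM in WT (-0.19). Mrps28 was at 7.18 FPKM in KO and 9.09 FPKM in WT (-0.30), and Mrps11 at 8.94 FPKM in KO and 11.8 FPKM in WT (-0.36). Exons of Mrps11 overlap those of Mrpl46 on the opposite strand, and those of Mrps6 overlap Slc5a3 on the same strand. Mrps6 is in this group by the list used here, and its contact with the mRNA path was not checked. With so few genes, the median of the group depends on which are counted. The 8 genes of the small subunit head had a median of -0.31 with 7 below 0, Mrps24 being the exception. Within the head, Mrps33 and Mrps31 were the lowest, Mrps31 at 6.54 FPKM in KO and 9.22 FPKM in WT (-0.44), while Mrps14, Mrps10, Mrps7, Mrps9 and Mrps35 lay between -0.38 and -0.21.

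In the large subunit, the central protuberance had the lowest median, -0.44 over 7 genes, 6 of them below 0. Of all measured genes, 49.5% were below 0. Mrpl18 was at 18.5 FPKM in KO and 26.6 FPKM in WT (-0.50), and Mrpl52 at 17.3 FPKM in KO and 24.5 FPKM in WT (-0.48). Exons of Mrpl18 overlap those of Tcp1 on the opposite strand. Mrpl58, a peptidyl-tRNA hydrolase built into the ribosome in humans, was at 9.55 FPKM in KO and 13.6 FPKM in WT (-0.47), and Mrpl40 at 21.2 FPKM in KO and 29.1 FPKM in WT (-0.44). Mrpl38 and Mrpl46 had ratios of -0.29 and -0.17, which left Mrpl48 as the only gene of this region above 0. The 8 genes of the tunnel exit were all below 0, with a median of -0.31 and the full spread from Mrpl22 to Mrpl24. Mrpl45, which in humans holds the ribosome at the inner membrane, was at 6.16 FPKM in KO and 8.92 FPKM in WT (-0.47). Mrpl39 and Mrpl44, in the same region, had ratios of -0.30 and -0.12.

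At the peptidyl transferase centre, where peptide bonds form, Mrpl16 had 11.2 FPKM in KO and 14.6 FPKM in WT (-0.36), Mrpl27 had 16.9 FPKM in KO and 21.6 FPKM in WT (-0.34) and Mrpl2 had 14.8 FPKM in KO and 18.5 FPKM in WT (-0.30). Together with Mrpl3 they gave a median of -0.32. Mrpl1, of the stalk that guides the leaving tRNA, was at 5.64 FPKM in KO and 7.27 FPKM in WT (-0.32). On the other side, the 5 genes of the factor-binding stalk and its base had a median of -0.26 and a wide spread. Mrpl12 was the lowest of them, Mrpl11, the base protein, had 13.3 FPKM in KO and 17.5 FPKM in WT (-0.37), and Mrpl10, to which Mrpl12 binds, had 15.5 FPKM in KO and 18.8 FPKM in WT (-0.26). Mrpl53 had a ratio of -0.11 at the lowest fragment number of the family. Outside these regions, Mrpl21, Mrpl37, Mrpl28, Mrpl9, Mrpl33, Mrpl19 and Mrpl41 had ratios between -0.52 and -0.45. Mrpl49, Mrpl55, Mrpl36, Mrpl20, Mrpl4, Mrpl15, Mrpl34 and Mrpl50 lay between -0.25 and -0.05, as did Mrps34 of the small subunit at -0.16.

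**Figure D3:**
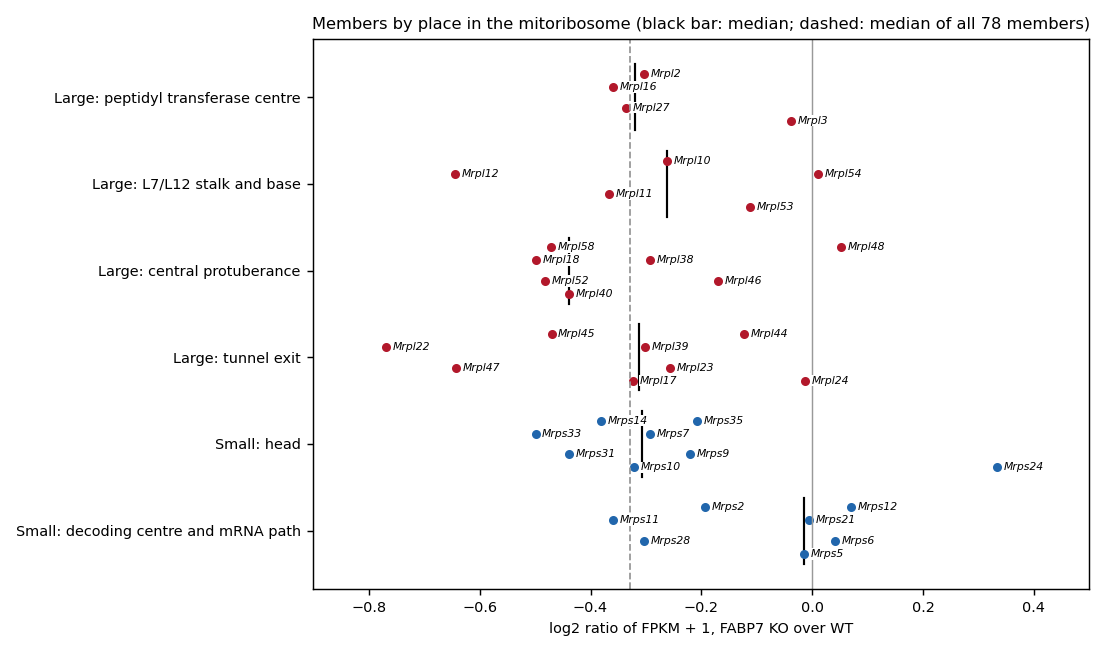
Log2 ratio, KO over WT with 1 added to each FPKM (x axis), for the members of 6 regions of the mitochondrial ribosome, large subunit in red and small subunit in blue, with the median of each region as a black bar and the median of all 78 members dashed; height within a row only separates the labels. As grouped here, the decoding centre and mRNA path has its median at -0.01 and the other 5 regions have theirs between -0.44 and -0.26.

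Medians by descent ran in opposite order in the subunits, taken here by symbol, so that Mrps30 and Mrps18a count as small. Over the family, 48 genes with a bacterial counterpart had a median of -0.32 with 45 below 0, and 29 genes found only in mitochondrial ribosomes had a median of -0.42 with 27 below 0. The share of all measured genes below 0 was 49.5%. In the large subunit the medians were -0.29 for 19 mitochondria-specific genes and -0.35 for 30 genes with a bacterial counterpart, all of which were below 0. In the small subunit they were -0.47 for 10 mitochondria-specific genes, all below 0, and -0.30 for 18 genes with a bacterial counterpart, 15 of them below 0. The 3 small subunit genes above 0, Mrps24, Mrps12 and Mrps6, all have a bacterial counterpart, and the 2 large subunit genes above 0, Mrpl48 and Mrpl54, have none. The middle 50% of these 4 groups overlapped, and since members are not replicates the differences were not tested.

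On the deposited scale, genes of the cytosolic ribosome and nuclear genes of the respiratory chain were lower in KO as well, a direction that rescaling to cytosolic ribosomal proteins takes away by construction for the cytosolic genes and, as its log2 shift of 0.45 exceeds the OXPHOS median, reverses for that median. In contrast, the mRNAs that mitochondrial ribosomes translate were nearly level on the deposited scale. That rescaling would move their median further above 0. The libraries were enriched with Oligo(dT) beads, and how this acts on these mRNAs was not tested. Among all measured genes, 49.5% were below 0 and 19.1% at least 20% lower. The 79 cytosolic ribosomal protein genes had a median of -0.46 with 77 below 0 and 67 at least 20% lower. Their pseudogenes are many and can share reads, and the lowest were Rpsa and Rps26, with ratios of -0.78 and -0.73. The highest were Rps27 and Rps29, with ratios of 0.09 and 0.04. The 77 measured nuclear OXPHOS subunit genes of 85 had a median of -0.37 with 72 below 0, led by Atp5o at -0.75 and Ndufb6 at -0.66. At their other end were Ndufa6 at 0.28 and Ndufa1 at 0.18. The 13 mitochondrially encoded mRNAs had a median of 0.06, with 5 below 0 and none at least 20% lower or 25% higher. The lowest, mt-Co1, was at 8809 FPKM in KO and 9664 FPKM in WT (-0.13), and the highest, mt-Nd4l, at 516 FPKM in KO and 417 FPKM in WT (0.30). The members' median thus lay above that of cytosolic ribosomal proteins and next to that of nuclear OXPHOS subunits.

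Proteins that serve the mitochondrial ribosome without the Mrp symbol were mostly lower by less on the deposited scale. The 5 ribosomal proteins named otherwise were all below 0 with a median of -0.26. Ptcd3, of the small subunit, was at 9.65 FPKM in KO and 14.0 FPKM in WT (-0.50), while Gadd45gip1, of the large subunit, was at 3.33 FPKM in KO and 3.38 FPKM in WT (-0.02). The other 3, Dap3, Chchd1 and Aurkaip1, had a ratio of -0.26 each. Of 22 assembly factors 18 were below 0 and 5 at least 20% lower, with a median of -0.17. Among all measured genes, 49.5% were below 0 and 19.1% at least 20% lower. The GTPase Mtg1 was the lowest at 2.51 FPKM in KO and 4.29 FPKM in WT (-0.59), followed by the 12S rRNA methyltransferase Tfb1m with 3.17 FPKM in KO and 4.92 FPKM in WT (-0.51), and the RNA helicase Dhx30 was the highest at 17.4 FPKM in KO and 14.4 FPKM in WT (0.25).

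Translation factors had a median of -0.11 over 10 measured genes, 8 of them below 0 and 3 at least 20% lower. The background shares are those given for the assembly factors. The elongation factor Gfm1 had 8.16 FPKM in KO and 12.4 FPKM in WT (-0.55), and the elongation factor Tufm had 23.1 FPKM in KO and 29.7 FPKM in WT (-0.35). Release factor Mtrf1 had 2.2 FPKM in KO and 3.44 FPKM in WT (-0.47). Initiation factor Mtif3, at 8.86 FPKM in KO and 7.35 FPKM in WT (0.24), and the recycling factor Mrrf, at 6.70 FPKM in KO and 6.43 FPKM in WT (0.05), were the 2 above 0. Factors for mRNA handling and membrane insertion comprised 4 genes with a median of -0.12, among them Lrpprc, which stabilises mitochondrial mRNAs, with 11.8 FPKM in KO and 14.4 FPKM in WT (-0.28), and its partner Slirp, with 5.77 FPKM in KO and 5.33 FPKM in WT (0.10).

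**Figure D4:**
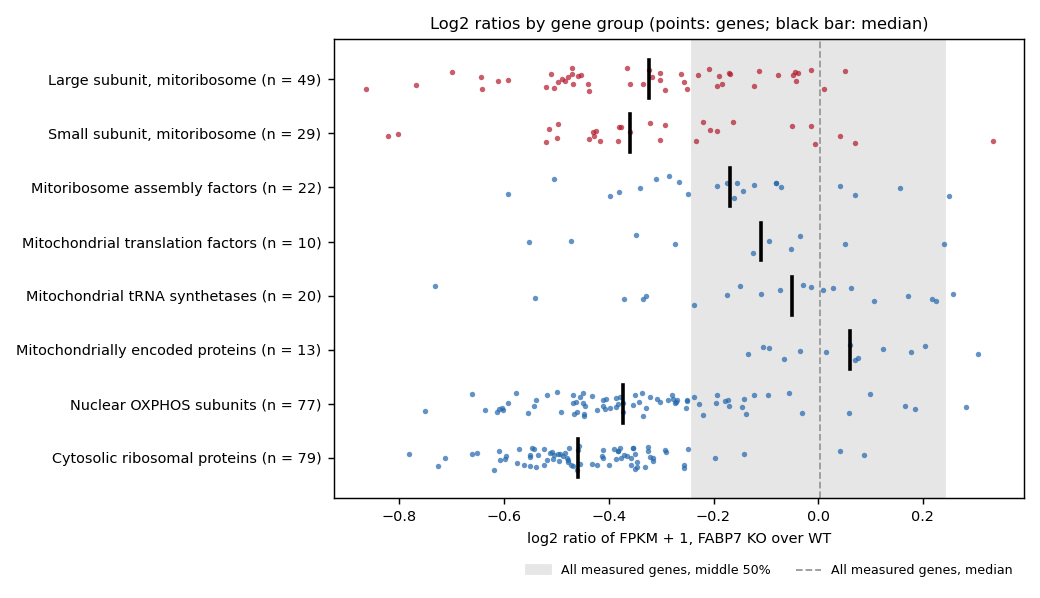
KO over WT log2 ratio with 1 added to each FPKM (x axis) for single genes (points) of both subunits of the mitochondrial ribosome (red) and 6 other gene groups (blue), with medians as black bars, the middle 50% of all measured genes in grey and their median dashed; heights within a row are random. On the deposited scale both subunits lie left of the dashed line with medians of -0.32 and -0.36, while the mitochondrially encoded genes lie around it.

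Starts of 19 members lie back to back with that of a protein-coding gene on the opposite strand, within 1 kb. Pairs whose annotated starts overlap by more than a short stretch, such as Mrps11 and Mrpl46, were not counted. In 18 such pairs with a measured partner, the members had a median of -0.34 and the partners a median of -0.09. Of the partners, 11 were below 0, where 49.5% of all measured genes were. Mrpl30, the lowest member, faces Mitd1, which was at 15.1 FPKM in KO and 16.6 FPKM in WT (-0.13) with its start 66 bases away. Mrps27 faces Ptcd2 over 81 bases, and both were lower, Ptcd2 with 21.4 FPKM in KO and 30.7 FPKM in WT (-0.50). Mrpl32, at 13.2 FPKM in KO and 20.4 FPKM in WT (-0.59), faces the proteasome gene Psma2 over 75 bases, which had 32.9 FPKM in KO and 47.9 FPKM in WT (-0.53). Mrps12 was above 0 while Sars2, the mitochondrial seryl-tRNA synthetase gene 172 bases away, was at 3.99 FPKM in KO and 6.26 FPKM in WT (-0.54). The largest gap was at Mrpl51, with 7.32 FPKM in KO and 10.3 FPKM in WT (-0.44), whose partner Ncapd2, a condensin gene, was at 6.15 FPKM in KO and 33.6 FPKM in WT (-2.27). The partners counted here thus did not share the narrow band of the members.

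Short transcripts and abundant genes had lower ratios across the whole table, so the members were set beside genes of like length, base composition and level. The median longest transcript was 1866.5 bases for the members and 3357 bases for measured genes. In the shortest of 5 equal length classes, the median was -0.30 for 40 members and -0.10 for all genes of the class. In the next classes it was -0.36 for 14 members against -0.05 for all genes, -0.43 for 12 members against 0.01, -0.18 for 9 members against 0.04, and -0.50 for 3 members against 0.08. Over 5 classes of GC content the members' medians ran from -0.44 to -0.29 and those of all genes from -0.03 to 0.09. Over 5 classes of mean FPKM, the lowest class had -0.11 for 5 members and 0.14 for all genes, and the other classes had member medians between -0.44 and -0.27 and medians of all genes between -0.07 and 0.04. The members' median was below that of all genes in each of these 15 classes.

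**Figure D5:**
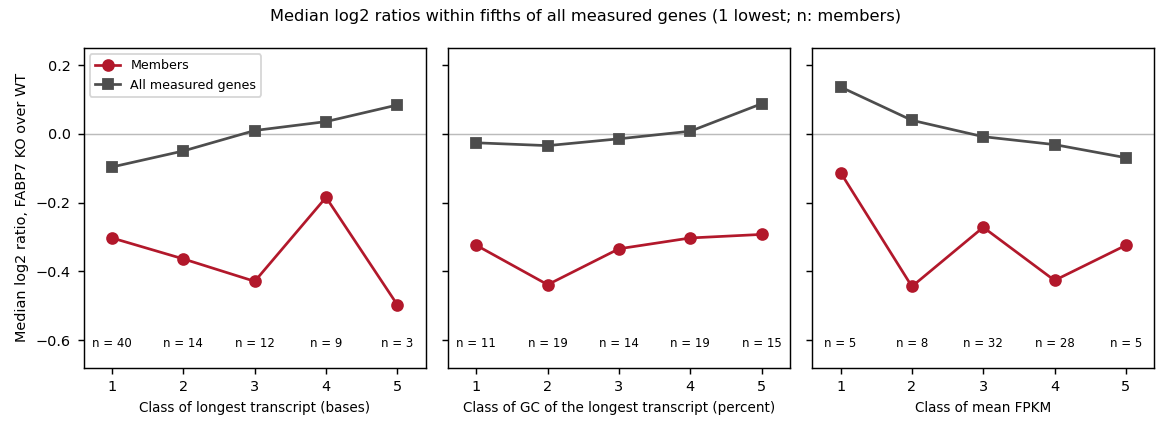
Median log2 ratio, FABP7 KO over WT (y axis), of members (red circles) and all measured genes (grey squares) in 5 equal classes of all measured genes by longest transcript, GC content and mean FPKM (x axes, 1 lowest), with the number of members in each class at the foot. In the shortest class the members' median is -0.30 and that of all genes is -0.10, and in every class the red circle lies below the grey square.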

How the data were processed

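mRNA was enriched with Oligo(dT) beads and sequenced on an Illumina NovaSeq instrument. The authors deposited FPKM values for 22322 genes in a table of both libraries, and the single-library tables held the same 44644 values. TopHat2 2.1.1 and Bowtie2 2.2.8 are listed, without their roles, in the processing notes of the submitters. Build of the genome, annotation, counting tool and use of strand were not given in the sources used here. Libraries were assigned to genotypes by sample title, matched to the column names.

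Symbols were taken from GENCODE M21 by Ensembl ID for 22267 genes, and 55 IDs had none. FPKM totals were 448390 in KO and 462837 in WT. The KO over WT log2 ratio used a pseudocount of 1 FPKM, which understates differences of low genes, and genes entered it if either library reached 1 FPKM. With 1 library per genotype no test was run, and lists are described by counts and medians. Depth was estimated from the steps between low values (290 in KO and 283 in WT, of which 80.0% and 79.2% lay within 0.15 of a whole fragment, where chance gives 30%), and counting errors followed from it. The steps were checked on values simulated with the same transcript lengths, so that check cannot show errors in the lengths. Promoters (RefSeq, GRCm38.p6) were matched by symbol, and 9 members had no entry. Members whose exons overlap another annotated gene number 33, 23 of them a protein-coding gene. Not every overlap of a named member is stated above. Pseudogenes marked -ps in their symbol are annotated for 3 members, with no row in the table. Pseudogenes under other symbols were not counted.

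The members, lists and size limits were chosen with earlier results of these data known. Genes were named by rule. In each subunit these were the 6 lowest and 6 highest ratios and the 6 highest mean levels. The regional groups, the S18 paralogs, Mrps30 and Mrps36 were also named. In the other lists names came from the 2 lowest and 2 highest ratios, and not every such gene is named. Further genes (Mrpl57, Tufm, the other ribosomal proteins and the gene pairs) were chosen after their values were seen. Alternatives were the pseudocount, the floor, 3 rescalings of the KO library, other subunit assignments and other handling of shared symbols. Leaving out members with a -ps pseudogene or overlapping exons was added after seeing the data. Scripts ran under Python 3.11.15 with Matplotlib 3.10.9, pandas 2.3.3 and NumPy 2.4.6.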

Additional observations from a re-analysis of the deposited data

How the results depend on the processing

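Rescaling the KO library to equal totals of cytosolic ribosomal proteins, a log2 shift of 0.45, reversed the direction of the family. The shift exceeded the members' median of -0.33 in size, so the reversal followed from it. It applied to every gene, so all measured genes, with a median of 0.00 before it, moved up as well. Their median after it is not given here. The median became 0.085 for all members, 0.096 for the large and 0.054 for the small subunit, the summed ratio 1.07, and 29 members were below 0 with 4 at least 20% lower. Rescaling to a median ratio of 1 among genes with 10 FPKM or above (a shift of 0.04) gave a median of -0.29 with 70 members below 0, and rescaling to totals that leave out mitochondrially encoded, erythroid and hepatocyte genes (0.05) gave -0.28 with 67 below 0. The pseudocount of 0.1 gave -0.36, the floor of 5 FPKM -0.35 over 72 members and a mean floor of 10 FPKM -0.36 over 54 members. Leaving out the members whose exons overlap another gene, chosen after seeing the data, left 45 members, 43 of them below 0 and 23 at least 20% lower, with a median of -0.32, the lower counts following from fewer genes. No member reached 2-fold under any alternative run. Large minus small, the difference of medians was -0.02 by structure and -0.01 with ribosomal proteins of other symbols added. No paired analysis was possible because each genotype has 1 library. Depth limits mainly the members with few fragments, such as Mrpl53.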

Other observations

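Mitochondrial tRNA synthetases and the amidotransferase, which charge the tRNAs that mitochondrial ribosomes use, had a median log2 ratio of -0.05 over 20 measured genes of 21, with 12 below 0 and 5 at least 20% lower in KO. The shares of all measured genes were 49.5% below 0 and 19.1% at least 20% lower. Pars2 was at 1.36 FPKM in KO and 2.92 FPKM in WT (-0.73). The highest were Gatc, an amidotransferase subunit, at 20.3 FPKM in KO and 16.8 FPKM in WT (0.26), and Mtfmt, which formylates the initiator tRNA, at 3.49 FPKM in KO and 2.84 FPKM in WT (0.23). Genes for transcription and upkeep of mitochondrial DNA had a median of -0.04 over 10 genes, 7 of them below 0. Tfam, which packs the mitochondrial genome, was at 14.3 FPKM in KO and 18.9 FPKM in WT (-0.38), and Tefm, an elongation factor, at 7.42 FPKM in KO and 9.93 FPKM in WT (-0.38). Mterf3 was the highest at 17.6 FPKM in KO and 12.1 FPKM in WT (0.51), followed by Polg2 with 2.35 FPKM in KO and 1.92 FPKM in WT (0.20).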
